A study of Mus musculus with 39 samples.

Results

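The microRNA (miRNA) content of mouse embryonic stem (ES) cells kept with Wnt3a was compared between day 3 and day 5 of treatment, on 3 arrays at each time. These 6 arrays, taken by their labels as Wnt3a day 3 and Wnt3a day 5, are 6 of the 39 arrays and 2 of the 13 groups of the series. The other groups are undifferentiated ES cells (ESCs) and cells at 1, 3 or 5 days with Activin A, Wnt3a, both factors or none, and of these the control and the Activin A plus Wnt3a cells at days 3 and 5 serve as references here. All groups came from the TCL-1 line, grown with LIF on mitomycin-treated mouse embryonic fibroblasts until the feeders were removed on gelatin. The cells were then plated on collagen in RPMI 1640 with B27 and a sodium salt. The controls got the same medium without growth factor. The study's methods name the salt butyrate, while its supplementary protocol spells it "byruate", so which salt all groups carried is not settled. Wnt3a was given at 50 ng/ml, alone or with 100 ng/ml Activin A. TCL-1 is a single line, and nothing in the labels says that replicates were separate cultures. The p-values and intervals therefore measure a spread between arrays that may be technical. It is pooled over all 13 groups of the series and not taken from these 6 arrays alone. Total RNA was measured in 1 colour on Agilent mouse miRNA arrays with 611 mouse miRNAs.

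A miRNA is a short RNA that pairs with messenger RNAs mainly through its seed, the bases near its 5′ end, and lowers their stability or translation, so that miRNAs with 1 seed share many targets. The miR-290 and miR-302 clusters are the abundant miRNAs of mouse pluripotent and early embryonic cells and keep the rapid ES cell cycle. The miR-200 family maintains the epithelial state, while miR-124, miR-9 and miR-219 are miRNAs of the nervous system. Wnt3a is a secreted ligand of the beta-catenin pathway, and Activin A is a TGF-beta family ligand used to direct ES cells to definitive endoderm.

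The sequences of the miRNAs that the comparison turned on are given here from RefSeq (GRCm38.p6), 5′ to 3′, with the seed, bases 2 to 8, in capitals. The first set holds the ES cell miRNAs with the seed AAGUGCU, which come from both pluripotency clusters, and miR-302c, whose seed is shifted by a base along the same run.
miR-302b: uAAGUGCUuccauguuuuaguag
miR-302d: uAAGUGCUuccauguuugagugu
miR-302c: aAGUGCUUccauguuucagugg
miR-294: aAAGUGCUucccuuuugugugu
miR-295: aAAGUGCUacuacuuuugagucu
miR-291a-3p: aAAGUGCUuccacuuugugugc
The mature miR-302b lies at chr3:127545275-127545297 and miR-302d at chr3:127545665-127545687 on the plus strand, and miR-294 lies at chr7:3220691-3220712 and miR-295 at chr7:3220815-3220837, also on the plus strand. The next set shows the seed shared by the miR-200 members that fell, and miR-183.
miR-200b: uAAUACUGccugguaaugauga
miR-200c: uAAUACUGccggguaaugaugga
miR-429: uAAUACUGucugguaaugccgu
miR-183: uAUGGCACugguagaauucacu
The miR-200b gene at chr4:156055685-156055706 and the miR-429 gene at chr4:156053916-156053937 are neighbours on the minus strand, whereas miR-200c lies at chr6:124718324-124718346. The last set holds miRNAs that rose.
miR-99a: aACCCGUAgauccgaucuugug
miR-125b-5p: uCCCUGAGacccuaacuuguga
miR-219: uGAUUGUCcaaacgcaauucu
miR-153: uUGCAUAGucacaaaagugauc
miR-9: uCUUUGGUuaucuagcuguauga
miR-9*: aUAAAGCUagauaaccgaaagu
miR-181a: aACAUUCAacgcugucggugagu
miR-181c: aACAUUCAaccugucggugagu
Of these, miR-99a (chr16:77598940-77598961) and miR-153 (chr12:117250860-117250881) each have 1 locus in the table, miR-219, miR-181a and miR-125b-5p have 2, and miR-9 has 3. The star marks the less abundant arm of a hairpin, as the array names it. A matching entry was found for 392 of the 611 miRNAs (64.2%) and for 265 of the 346 tested ones (76.6%). The miRNAs miR-302a and miR-124 are given by name.

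Values below are log2 of the quantile-normalized signal, and a miRNA that was undetected or under a signal of 2 was set to that floor, which is 1.00 on the log2 scale. The software detected 292 to 303 mouse miRNAs on the day 3 arrays and 319 to 366 on the day 5 arrays. The day 3 arrays lay close together, with a median SD of 0.07 over the 270 miRNAs detected on all 6 arrays, and the day 5 arrays did not, with a median SD of 0.57. Because the tests pool the spread over all groups, their intervals can be too narrow for the day 5 arrays. Day 5 replicate 1 stood apart. Of those 270 miRNAs, 57 were more than 2-fold lower and 64 more than 2-fold higher on it than on the mean of replicates 2 and 3, whereas replicates 2 and 3 differed from each other by more than 2-fold in 18. Its total signal, 86124.5, was the lowest of the 6 arrays, and those of replicates 2 and 3 were 171401 and 109461.7.

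The deviation of replicate 1 ran with the base composition of the miRNA. Over the 218 of the 270 miRNAs with a sequence (80.7%), it correlated with GC content at r = 0.60 (Spearman's rho = 0.66), a description across miRNAs that share the same arrays. Among the 16 miRNAs under 35% GC the median deviation was -1.41 and 14 lay below 0. Among the 55 miRNAs over 55% GC it was 1.12 and 52 lay above 0. The difference between replicates 2 and 3 had a rho of -0.30 with GC content, and the 3 control arrays of day 5 had values of -0.02 to 0.05. Results are therefore given with all 6 arrays, and also without day 5 replicate 1. The part of base composition in any change from day 3 to 5 was not tested, and the change itself correlated with GC content at r = 0.16 with all arrays and at -0.12 without replicate 1.

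**Figure D1:**
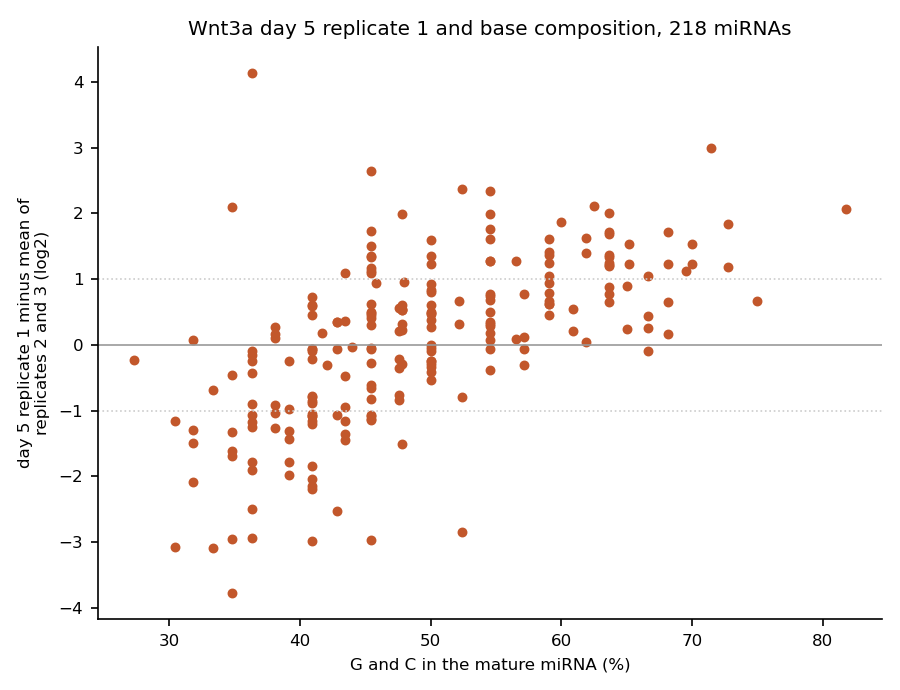
Difference of Wnt3a day 5 replicate 1 from the mean of replicates 2 and 3 (log2) against the GC content of the mature miRNA (percent), for the 218 miRNAs detected on all 6 arrays and with a sequence, 1 point each. Points under 35% GC lie mostly below 0 and points over 55% GC mostly above it.

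Slides also followed the days. All 3 Wnt3a day 3 arrays lay on 1 slide and were scanned in the first of the 2 scan sessions, and all 3 day 5 arrays lay on another slide scanned in the second. Day and slide cannot be told apart for the Wnt3a cells.

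From day 3 to day 5, 79 of the 346 tested miRNAs changed more than 2-fold (22.8%; limma, adjusted p under 0.05), 35 higher (10.1%) and 44 lower (12.7%). Without day 5 replicate 1 there were 67 (19.4%), 30 higher (8.67%) and 37 lower (10.7%). The 2 sets shared 52 miRNAs, which are 65.8% of the first and 77.6% of the second, and each of the 52 had the same direction in both (22 higher, 30 lower). The shared set held most of the miR-302 and miR-200 members on the falling side and miR-99a, miR-219, miR-153, miR-124 and miR-181a on the rising side. Another 27 were called only with all arrays and 15 only without replicate 1. The values of the 3 day 5 arrays all lay outside those of day 3 for 158 miRNAs (45.7%), with 69 above (19.9%) and 89 below (25.7%).

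The split between higher and lower depended on the scaling, since quantile normalization holds the distribution of each array fixed. The median change over the tested miRNAs was 0.04. When each array was instead scaled to the 75th percentile of the miRNAs detected on all arrays, the median was 0.30 (0.39 without replicate 1) and 73 miRNAs were higher and 22 lower (76.8% higher, against 44.3% under quantile normalization). Without replicate 1 that scaling gave 72 higher and 14 lower. With normexp background correction of the spot signals in place of the software's subtraction, 8 miRNAs were called (2 higher, 6 lower). This setting also added an offset of 50 to each spot, and an added constant shrinks the log2 changes of low signals. The parts of the correction and of the offset were not tested. Of the 52 shared calls, 23 remained when log2 signals or the compared arrays alone were quantile normalized, under both 75th percentile scalings and with any 1 of the 6 arrays left out, among them miR-302a, miR-302b, miR-302c, miR-302d, miR-293, miR-200b, miR-429, miR-183, miR-99a, miR-219, miR-153, miR-124, miR-9*, miR-181a and miR-125b-5p.

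**Figure D2:**
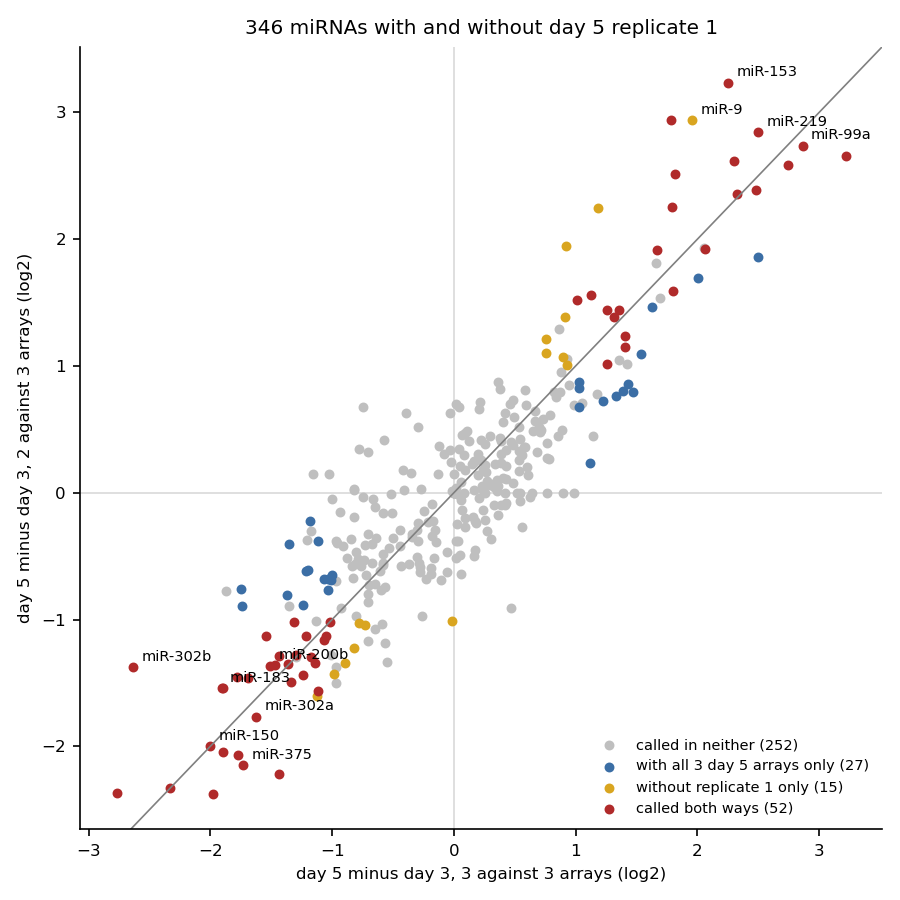
Change from day 3 to day 5 with Wnt3a (log2) computed without day 5 replicate 1 (vertical axis) against the change computed with all 6 arrays (horizontal axis), 1 point for each of the 346 tested miRNAs. The 52 miRNAs called both ways lie on the same side of 0 on both axes.

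The miR-302 cluster, which includes miR-367, fell as a whole with all arrays. All 6 of its tested members were lower, and 5 of 6 were lower without replicate 1, with a median change of -1.70 and -1.42 beside 0.04 and 0 over all tested miRNAs. Of all tested miRNAs, 12.7% were lower with all arrays and 10.7% without replicate 1. miR-302a was at 10.38, 10.38 and 10.47 on the day 3 arrays and at 9.07, 8.57 and 8.72 on the day 5 arrays. The groups were well apart, and miR-302a fell by 1.62 ± 0.17 (95% interval, n = 3 and 3; limma, adjusted p = 4.2e-15), a 3.08-fold drop, and by 1.77 ± 0.14 without replicate 1. miR-302b was at 9.57, 9.65 and 9.49 at day 3 and at 4.42, 8.17 and 8.21 at day 5. Replicate 1 lay far under the other day 5 arrays here, so that the change of -2.63 ± 1.01 (limma, adjusted p = 5.9e-05) became -1.38 ± 0.21 without it (adjusted p = 4.8e-12).

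The rest of the cluster had the same order of days. miR-302d was at 10.27 on each day 3 array and at 7.84, 8.81 and 8.81 at day 5, and miR-302c at 8.29, 8.26 and 8.29 and then at 6.88, 6.76 and 7.10. Equal values on several arrays arise because quantile normalization gives miRNAs of equal rank the same value. miR-302a*, the other arm of the miR-302a hairpin, was at 4.59, 4.63 and 4.49 at day 3 and at 1.00, 2.08 and 2.33 at day 5, and it fell by 2.77 ± 0.34 (limma, adjusted p = 5.3e-14), or by 2.37 ± 0.12 without replicate 1. miR-367, which ends the cluster and has another seed, was the exception: at 9.49, 9.74 and 9.57 and then at 7.75, 9.49 and 8.36, its change of -1.07 ± 0.58 (limma, adjusted p = 0.0024) became -0.68 ± 0.56 without replicate 1, under the 2-fold limit. The level summed over the cluster was 12.10 to 12.15 on the day 3 arrays and 10.14, 10.93 and 10.68 on the day 5 arrays.

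Earlier in the course the levels were lower than at day 3. In the undifferentiated ESCs and after 1 day of Wnt3a, the mean of miR-302a was 9.68 and 8.39, against 10.41 at day 3 and 8.79 at day 5. miR-302a* was undetected in the ESCs and at day 1, and it was at 4.57 at day 3.

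**Figure D3:**
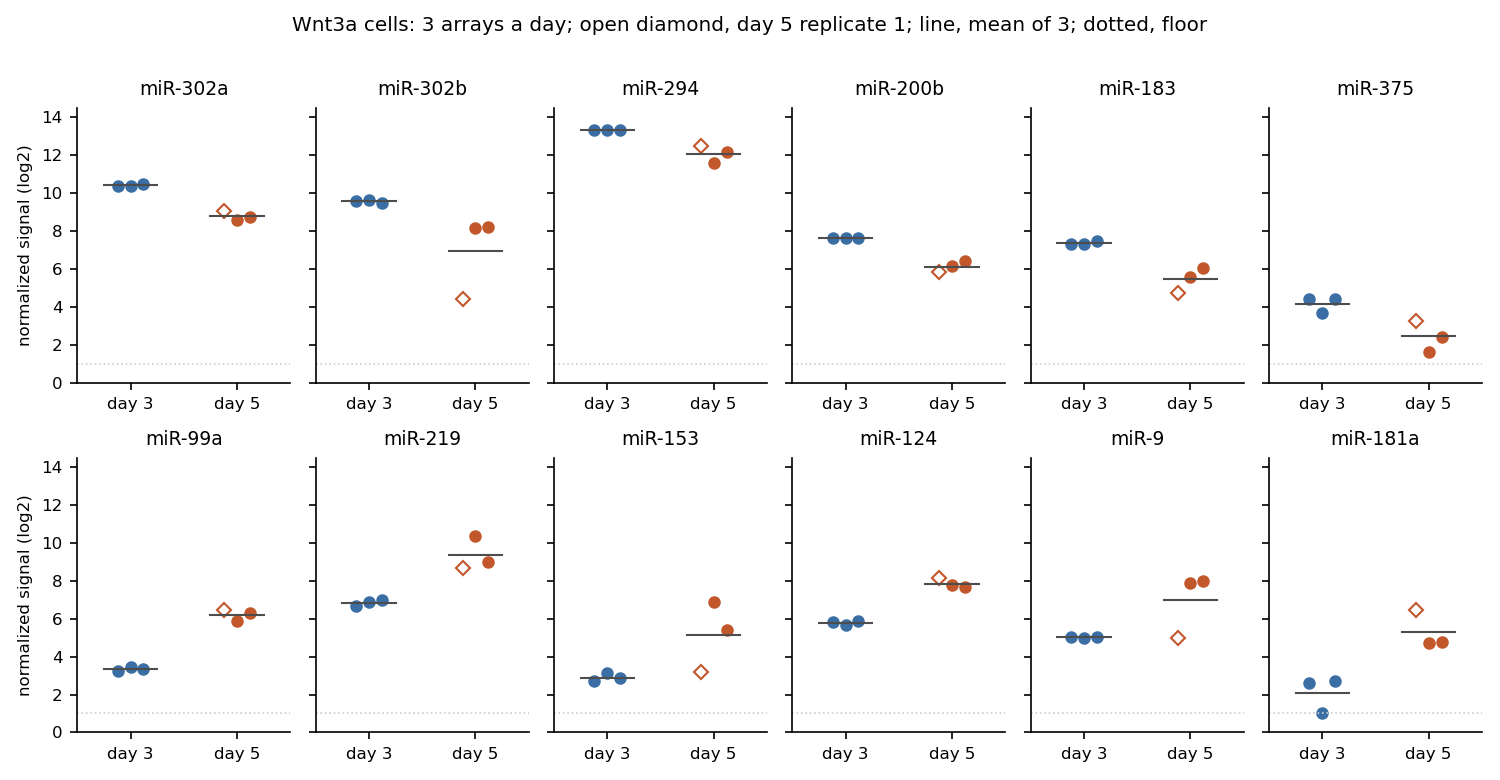
Log2 of the normalized signal of selected miRNAs on each of the 3 Wnt3a day 3 and 3 Wnt3a day 5 arrays, 1 point per array, with day 5 replicate 1 as an open diamond, lines at the group means and a dotted line at the floor. The points of miR-302a, miR-200b, miR-99a and miR-219 do not overlap between the days, and day 5 replicate 1 of miR-9 lies among the day 3 arrays.

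In the miR-290 cluster, which runs to miR-295, 5 of 13 tested members were lower with all arrays and 7 of 13 without replicate 1, none was higher, and the median change was -0.90 and -1.13. Over all tested miRNAs, 12.7% and 10.7% were lower and the median change was 0.04 and 0. miR-294 was at 13.32, the top rank, on all 3 day 3 arrays and at 12.48, 11.59 and 12.18 at day 5. It fell by 1.24 ± 0.25 (limma, adjusted p = 1.5e-09), a 2.36-fold drop, and by 1.44 ± 0.21 without replicate 1. Since the top rank is a ceiling of the normalization, a larger day 3 level would not show. miR-295, at 12.48 on each day 3 array, was at 10.74, 11.27 and 11.13 at day 5 and fell by 1.44 ± 0.21 (1.28 ± 0.18 without replicate 1). miR-293, at 11.59, 11.59 and 11.43 and then at 10.16, 10.16 and 10.64, fell by 1.21 ± 0.30 (1.13 ± 0.32 without replicate 1).

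Members of the same cluster differed. miR-291a-3p, which has the seed of miR-294 and miR-295, was at 11.43, 11.27 and 11.13 at day 3 and at 11.43, 11.13 and 10.74 at day 5. Its arrays overlapped, and the change of -0.18 ± 0.26 did not pass the test (limma, adjusted p = 0.27). miR-292-3p, at 11.75 on each day 3 array and at 11.27, 10.74 and 10.81 at day 5, had a change of -0.81 ± 0.19 that passed the adjusted p but not the 2-fold limit. Other arms of these hairpins were also lower. miR-294* was at 5.46, 5.37 and 5.37 and then at 4.20, 2.04 and 4.01, and it fell by 1.98 ± 0.63, or by 2.37 ± 0.62 without replicate 1. For miR-291a-5p, at 6.30, 6.26 and 6.23 and then at 6.40, 3.25 and 4.85, replicate 1 lay at the day 3 level, and the change was -1.44 ± 0.73 with it and -2.22 ± 0.45 without. Of the 5 tested miRNAs found with the seed AAGUGCU among those with a sequence, which stand above, 4 were lower both ways and miR-291a-3p was not.

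The miR-200 family, typical of epithelial cells, and the miR-183 cluster were lower as well. Of the 5 tested miR-200 members, 4 were lower with all arrays and 3 without replicate 1, where 12.7% and 10.7% of all tested miRNAs were. miR-200b was at 7.64, 7.66 and 7.61 at day 3 and at 5.84, 6.15 and 6.40 at day 5, without overlap, and it fell by 1.51 ± 0.18 (limma, adjusted p = 4.4e-14), or by 1.36 without replicate 1. miR-429, its neighbour on chromosome 4, was at 6.74, 6.61 and 6.57 and then at 5.60, 4.96 and 5.33, and fell by 1.34 ± 0.22, or by 1.49 ± 0.21 without replicate 1. miR-200c, from the locus on chromosome 6, was at 6.01, 6.01 and 5.96 and then at 5.07, 4.58 and 4.82, and fell by 1.17 ± 0.19, or by 1.29 ± 0.17 without replicate 1. These are the 3 tested miRNAs with the seed AAUACUG, and all 3 were lower both ways. The tested members with the other seed of the family were miR-200a, which was called lower with all arrays (-1.24 ± 0.35) but not without replicate 1 (-0.88), and miR-141, which was not called (0.02 and 0.04).

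Of the 4 tested arms of the miR-183 cluster, which holds miR-96 and miR-182, 3 were lower both with all arrays and without replicate 1. Of all tested miRNAs, 12.7% and 10.7% were lower. miR-183 was at 7.29, 7.34 and 7.47 at day 3 and at 4.73, 5.60 and 6.05 at day 5, and it fell by 1.91 ± 0.37 (limma, adjusted p = 9.1e-10), a 3.75-fold drop, or 2.91-fold without replicate 1. miR-96 was at 8.52, 8.48 and 8.60 and then at 6.15, 8.07 and 7.78. Its call rested on replicate 1, with a change of -1.20 that became -0.61 without it, whereas miR-182 went the other way, from -0.73 (not called) to -1.05.

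Among single miRNAs, miR-375, which is typical of endocrine pancreas and gut, was at 4.42, 3.70 and 4.39 at day 3 and at 3.27, 1.61 and 2.43 at day 5. It fell by 1.73 ± 0.65 (limma, adjusted p = 4.2e-05), or by 2.15 ± 0.64 without replicate 1. With all arrays it was not called under either 75th percentile scaling. miR-497 (5.09, 5.02 and 5.18, then 3.39, 3.77 and 3.70) and miR-29a (5.55, 5.58 and 5.65, then 4.26, 4.20 and 4.43) fell by 1.47 ± 0.25 and 1.30 ± 0.18, with day 5 arrays close together, and by 1.36 and 1.28 without replicate 1. miR-150, known from lymphocytes, was at 2.97, 3.06 and 2.97 at day 3 and undetected on all 3 day 5 arrays, which makes it at least 4.0-fold lower, and it was the only miRNA detected on all 3 arrays at day 3 and on none at day 5. The call of miR-196b, a miRNA of the Hox clusters, was weak: at 3.17, 2.97 and 3.00 and then at 1.46, 1.00 and 1.00, its adjusted p of 0.029 rose above 0.05 when any of 5 of the 6 arrays was left out (0.0547 to 0.069; 0.036 without day 5 replicate 1).

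Several other falls rested on replicate 1. miR-27a, at 7.02, 7.05 and 6.90 at day 3, was at 3.74 on that array and at 6.57 and 6.61 on the others, so that -1.35 became -0.40. miR-7a (6.90, 6.86 and 7.02, then 4.43, 6.08 and 6.17), miR-195 (5.48, 5.50 and 5.52, then 2.08, 4.47 and 4.73) and miR-369-5p (6.26, 6.23 and 6.15, then 2.48, 5.33 and 5.58) had the same shape, with changes of -0.81, -0.90 and -0.76 without it, none of them called. In the let-7 family, which accumulates as cells differentiate, 4 of 9 members were tested and none was called by limma (2 had an unadjusted p under 0.05 with all arrays and 0 without replicate 1). let-7a was at 4.50, 3.96 and 4.65 at day 3 and at 1.00, 4.23 and 4.80 at day 5, undetected on replicate 1 and at the day 3 level on the others.

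Of the 53 tested members of the large imprinted Dlk1-Dio3 cluster, 12 were lower and 1 higher with all arrays, where 12.7% of all tested miRNAs were lower. Without replicate 1, 7 were lower and none higher, a share near the 10.7% of all tested miRNAs. The median change was -0.60 and -0.56, beside 0.04 and 0 over all tested miRNAs, and the arrays of the days did not overlap for 28 members that were lower and 2 that were higher, where 25.7% and 19.9% of all were. miR-154* fell by 1.54 with all arrays and by 1.13 without replicate 1, and miR-376b* by 1.90 and 1.54, whereas the changes of miR-495 (-1.21) and miR-337-3p (-1.11) became -0.62 and -0.38. The one higher member, miR-494, was at 10.74, 10.81 and 10.64 and then at 13.32, 11.43 and 11.75, and its change of 1.43 became 0.85 without replicate 1. The calls of this cluster moved with the scaling: with the 75th percentile of the miRNAs detected on all arrays, 3 members were lower and 2 higher, and without replicate 1 none was lower and 2 were higher, with a median of -0.37 and -0.35 beside 0.30 and 0.39 over all tested miRNAs.

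**Figure D4:**
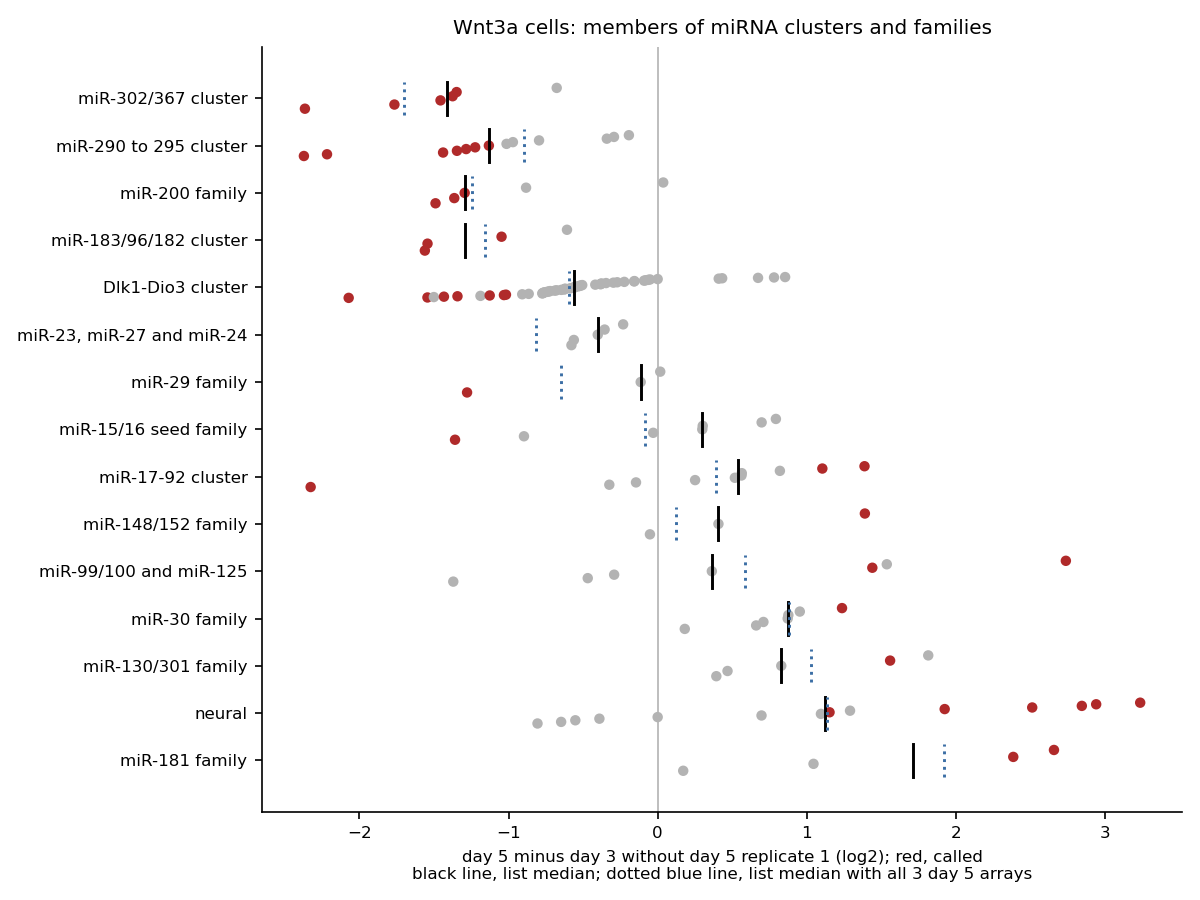
Change from day 3 to day 5 with Wnt3a (log2) without day 5 replicate 1, of each tested member of the miRNA clusters and families, 1 point per miRNA, red where called, with a black line at the median and a dotted line at the median with all 6 arrays. The medians of the miR-302, miR-290, miR-200 and miR-183 members lie below -1, and those of the neural and miR-181 members above 1.

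Several of the miRNAs that rose belong to the nervous system. Of the 20 miRNAs on a list of neural miRNAs, 14 were tested. With all arrays 6 were higher and 1, miR-7a, lower, and without replicate 1 another set of 6, with miR-9 in place of miR-92b, was higher and none was lower, where 10.1% and 8.67% of all tested miRNAs were higher. The median change was 1.14 and 1.12, beside 0.04 and 0 over all tested miRNAs. miR-219, a miRNA of neurons and oligodendrocytes, was at 6.65, 6.90 and 6.99 at day 3 and at 8.66, 10.38 and 9.0 at day 5, and it rose by 2.50 ± 0.63 (limma, adjusted p = 1.1e-07), a 5.65-fold rise, or 7.18-fold without replicate 1. miR-124, the most abundant miRNA of neurons, was at 5.84, 5.65 and 5.89 and then at 8.14, 7.78 and 7.66. Its arrays were well apart and it rose by 2.07 ± 1.10 (limma, adjusted p = 0.0019), 4.19-fold (3.80-fold without replicate 1), with an interval that is wide because the spread is pooled over all 13 groups. The other arm, miR-124*, at 3.70, 2.93 and 2.77 and then at 5.05, 4.26 and 4.31, rose by 1.41 ± 0.36, or by 1.15 ± 0.34 without replicate 1.

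For other neural miRNAs replicate 1 lay near day 3. miR-9, which acts in neural progenitors, was at 5.02, 4.99 and 5.02 at day 3 and at 4.99, 7.90 and 8.01 at day 5. With all arrays its change of 1.95 ± 1.74 did not pass (limma, adjusted p = 0.059), and without replicate 1 it rose by 2.94 ± 1.79 (adjusted p = 0.0056). miR-9*, from the same hairpin, was at 3.09, 3.25 and 3.12 and then at 3.58, 5.61 and 5.71, and it was higher both ways, by 1.82 ± 0.96 and 2.51 ± 0.90. miR-153 was at 2.71, 3.12 and 2.86 and then at 3.19, 6.86 and 5.41, and it rose by 2.26 ± 1.01 with all arrays (limma, adjusted p = 3.6e-04) and by 3.24 ± 0.74 without replicate 1. The same array set the values of miR-135a (5.14, 5.18 and 5.07, then 3.99, 6.97 and 7.17), which was called higher only without it, with a change of 1.95 ± 0.30 against 0.92. miR-92b, on the other hand, was called only with it (1.54 ± 1.10; 1.09 without). miR-128, a further neuronal miRNA, had a change of -0.67 (-0.55 without replicate 1) and was not called.

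Most of these miRNAs were undetected earlier in the course. miR-99a, miR-219, miR-153 and miR-181a were undetected on all arrays of the undifferentiated ESCs and of Wnt3a day 1, and miR-9 was undetected on the ESC arrays and detected on 1 array of Wnt3a day 1. miR-124 was already at a mean of 5.69 at day 1 and 5.79 at day 3, before its rise to 7.86.

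Beside the neural set, members of the miR-99, miR-100, miR-125 and miR-181 families were higher. miR-99a was at 3.25, 3.48 and 3.32 at day 3 and at 6.47, 5.89 and 6.28 at day 5, and it rose by 2.86 ± 0.57 (limma, adjusted p = 1.3e-09), 7.28-fold, or 6.67-fold without replicate 1. miR-125b-5p, at 6.95, 7.07 and 7.05 and then at 8.21, 8.32 and 8.60, rose by 1.36 ± 0.18, or by 1.44 ± 0.18 without replicate 1. Its course was not a simple rise, since its mean was 10.31 in the ESCs and 10.98 at day 1 of Wnt3a. miR-100, which shares the seed ACCCGUA with miR-99a and miR-99b, was at 4.80, 4.65 and 4.90 and then at 6.80, 6.05 and 6.59. The arrays did not overlap, but the pooled spread gave 1.70 ± 1.85 (limma, adjusted p = 0.13; 1.54 ± 2.12 without replicate 1), and the change of miR-99b was -0.06 (-0.47 without replicate 1), not called. In all, 2 of the 7 tested members of these families were higher and none was lower, both ways, where 10.1% and 8.67% of all tested miRNAs were higher.

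All 4 miR-181 members, which share the seed ACAUUCA, had a change above 0 with all arrays, and 2 of them were called higher, where 10.1% of all tested miRNAs were. miR-181a, detected on 2 of 3 arrays at day 3, was at 2.59, 1.00 and 2.71 and then at 6.44, 4.73 and 4.78, and it rose by 3.22 ± 0.88 (limma, adjusted p = 4.1e-07), or by 2.66 ± 0.87 without replicate 1. miR-181c was undetected on the day 3 arrays and at 3.67, 3.63 and 3.14 at day 5, at least 3.90-fold higher. miR-181b was at 5.37, 5.41 and 5.35 and then at 7.36, 6.21 and 6.63, and its change of 1.36 ± 1.91 did not pass the test (limma, adjusted p = 0.25; 1.05 ± 2.18 without replicate 1).

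Detection at day 5 alone was seen for 23 miRNAs, which were undetected on all 3 day 3 arrays and detected on all 3 at day 5. This choice fixed their direction, so their calls are no separate support for a rise. Of these 23, 8 were called higher with all arrays and 6 of the 8 also without replicate 1 (miR-33, miR-181c, miR-344, miR-455, miR-546 and miR-804). Of all tested miRNAs, 10.1% were higher with all arrays and 8.67% without replicate 1. miR-344, at 4.07, 3.65 and 3.52 at day 5, was at least 4.69-fold higher. Its adjusted p of 3.9e-22 (limma) is very small because miRNAs at the floor in most groups have almost no pooled spread. miR-222, a miRNA of endothelium and proliferating cells, was at 4.78, 2.62 and 3.09 at day 5, at least 3.95-fold higher, and was called only with all arrays.

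In other families, 2 of the 7 tested miR-30 members were higher with all arrays and 1 without replicate 1, and 2 and 1 of the 5 tested members of the miR-130 and miR-301 family. Over all tested miRNAs, 10.1% were higher with all arrays and 8.67% without replicate 1. miR-30a* was at 2.75, 3.14 and 2.81 and then at 4.63, 4.07 and 4.20, and miR-152 at 2.86, 3.00 and 2.90 and then at 4.09, 4.34 and 4.28, and both were higher both ways. miR-301a, at 7.84, 7.90 and 7.81 and then at 8.11, 10.04 and 8.77, rose by 1.12 with all arrays and by 1.56 without replicate 1. In the miR-17-92 cluster, a driver of proliferation, miR-20a was at 11.13, 11.13 and 11.27 and then at 11.13, 12.48 and 12.64. It was called higher only without replicate 1 (1.39 ± 0.24, against 0.91 with all arrays), as was miR-20a*. Of the 10 tested members of this cluster, the only call that held both ways was a fall, that of miR-92a*. Of all tested miRNAs, 12.7% were lower with all arrays and 10.7% without replicate 1. Some miRNAs outside these families rose both ways, among them miR-193 (2.32 and 2.36), miR-32 (1.78 and 2.94) and miR-186 (1.26 and 1.01). miR-720, which is a fragment of a transfer RNA rather than a miRNA, was at 10.64, 10.74 and 10.74 and then at 11.59, 13.32 and 10.98.

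For markers of other cell types, detection and calls were as follows. Of 8 heart and skeletal muscle miRNAs, none was detected on the day 3 arrays, 2 were detected on each day 5 array, 2 (miR-133a and miR-133b) were tested and none was called by limma (1 with an unadjusted p under 0.05), and the summed level at day 5 was 2.30 to 2.77. These calls depended on the scaling, and both were called higher with either 75th percentile scaling. Of 8 endoderm, gut and liver miRNAs, 2 were tested and the 1 called was miR-375, which fell. With all arrays none of this list was called under either 75th percentile scaling. Without replicate 1, none was called with that of the miRNAs detected on all arrays and 1 was lower with that of all miRNAs. The liver miRNA miR-122 and the gut miRNAs miR-192, miR-194 and miR-215 were not tested because they were detected on too few arrays. Of 13 miRNAs of fibroblasts and feeder cells, 8 were tested. In that list, 1 (miR-152) was higher and 1 (miR-31) lower with all arrays, and miR-199a-5p and miR-199b* were higher besides without replicate 1. Of all tested miRNAs, 10.1% were higher and 12.7% lower with all arrays, and 8.67% were higher without replicate 1. With the 75th percentile of the miRNAs detected on all arrays, 3 were higher and none lower, and 4 were higher without replicate 1. On the day 3 arrays 5 or 6 of the 13 were detected and on the day 5 arrays 7 to 10, and the summed level was 10.57 to 10.65 at day 3 and 9.91 to 10.65 at day 5. Its defining members miR-143 and miR-145 were undetected at day 3 and each was detected on 1 array at day 5. The part of these cell types in the changes was not tested. Of 10 blood and endothelial miRNAs, 5 were tested, with 1 higher and 1 lower with all arrays. In these bulk samples, fewer cells of a type and less RNA per cell cannot be told apart.

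The control cells, kept in the same medium without growth factors, give the change over the same days in the absence of Wnt3a. In them, 67 of 322 tested miRNAs changed (20.8%), 36 higher (11.2%) and 31 lower (9.63%). Of the 52 miRNAs called both ways with Wnt3a, 47 were tested in the controls and 38 were called there, all 38 in the same direction. miR-99a rose by 3.83 in the controls, against 2.86 with Wnt3a, miR-219 by 1.73, miR-124 by 1.76 and miR-9 by 2.62. miR-302a fell by 1.67 there, miR-294 by 1.67 and miR-200b by 1.50. Across the 322 miRNAs, the 2 changes correlated at r = 0.82 (0.86 without replicate 1), a description across miRNAs measured in the same 2 scan sessions. The control arrays spanned the same sessions as the Wnt3a arrays, on partly different slides. At day 3, 2 of the 3 control arrays lay on the slide of the Wnt3a arrays. At day 5 all 3 control arrays lay on another slide than the 3 Wnt3a arrays, so that treatment and slide ran together for these 2 groups.

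The difference between the Wnt3a change and the control change passed the test for 8 of 346 miRNAs (2.31%), 2 higher (0.578%) and 6 lower (1.73%) with Wnt3a. Without replicate 1 it passed for 15 (4.34%), 6 higher (1.73%) and 9 lower (2.6%). The 6 in both sets were miR-136, miR-150, miR-15b, miR-325, miR-551b and miR-582-5p. Of these, miR-136 and miR-15b were detected on every array compared. Of the 8, 4 were detected on all arrays compared, and likewise 4 of the 15, so that the rest involve undetected values at the floor. None of the miR-302, miR-290 or miR-200 members was among the 8. miR-15b, which belongs to the miR-15/16 family that restrains the cell cycle, was at 10.04 on each Wnt3a day 3 array and at 7.87, 9.65 and 10.38 at day 5, and in the controls at 9.74, 9.65 and 10.27 and then at 10.81, 10.98 and 10.81. The change with Wnt3a minus that of the controls was -1.73 ± 0.89 (limma, adjusted p = 0.013), and -1.01 ± 0.42 without replicate 1 (adjusted p = 0.0012). miR-136, of the Dlk1-Dio3 cluster, was at 6.38, 6.59 and 6.47 and then at 6.76, 7.72 and 6.10 with Wnt3a, and at 6.51, 6.55 and 6.17 and then at 5.80, 5.30 and 5.63 in the controls. Its change was higher with Wnt3a by 1.21 ± 0.69 (limma, adjusted p = 0.032), and by 1.26 without replicate 1. This result was weak. Its adjusted p stayed under 0.05 in 7 of 16 alternative settings and in 5 of 12 fits with an array left out. For miR-15b these were 9 of 16 and 11 of 12.

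In the controls, miR-21 was at 9.65, 9.74 and 10.04 and then at 10.74, 10.64 and 10.64, a change of 0.87 under the 2-fold limit, and miR-16 rose from 9.57, 9.49 and 9.74 to 10.64, 10.74 and 10.74. With Wnt3a, miR-21 was at 10.47, 10.47 and 10.38 and then at 9.57, 10.47 and 10.47, and miR-16 at 9.74, 9.49 and 9.65 and then at 9.27, 9.57 and 10.27. The differences of -1.13 ± 0.43 and -1.03 ± 0.47 (limma, adjusted p = 8.6e-04 and 0.0051) became -0.84 and -0.81 without replicate 1, under the 2-fold limit. The count of 8 was sensitive to single arrays and lay between 4 without control day 3 replicate 2 and 25 without Wnt3a day 5 replicate 3. It was 13 without Wnt3a day 5 replicate 2 and 15 without control day 3 replicate 3. Scaling arrays to the 75th percentile of the miRNAs detected on all arrays gave 7 calls, 5 of them higher (71.4%, against 25% of the 8). Only 2 of those 7 were among the 8, so the scaling changed which miRNAs were called. With the 75th percentile of all mouse miRNAs, 1 of 6 calls was among the 8.

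**Figure D5:**
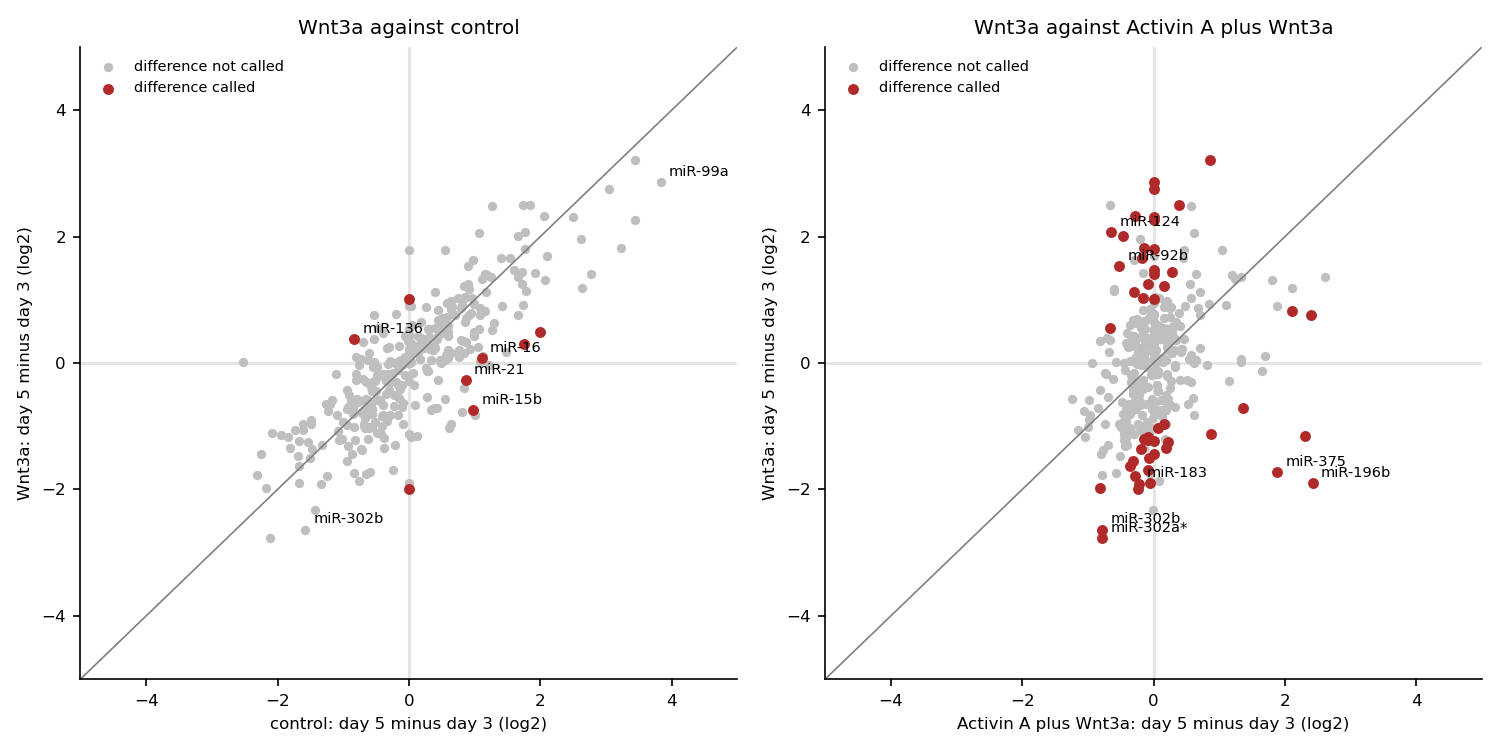
Change from day 3 to day 5 with Wnt3a (log2, vertical axes) against the change in the control cells (left) and in the cells with Activin A plus Wnt3a (right; log2, horizontal axes), 1 point for each of the 346 miRNAs tested for the Wnt3a change, with a line of equal change. The 8 (left) and 50 (right) of them whose changes differed by the test are in red, and the points lie nearer the line on the left (r = 0.82 over 322 miRNAs) than on the right (r = 0.28 over 304).

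Cells given Activin A together with Wnt3a had a different course over the same days. Of 311 tested miRNAs, 18 changed (5.79%), 15 higher (4.82%) and 3 lower (0.965%), and of the 52 miRNAs called both ways with Wnt3a, 39 were tested there and 5 were called (miR-125b-5p, miR-152, miR-196b, miR-375 and miR-672). Across 304 miRNAs the 2 changes correlated at r = 0.28 (0.40 without replicate 1). The difference between the 2 changes passed the test for 53 of 353 miRNAs (15%), 24 higher (6.8%) and 29 lower (8.22%) with Wnt3a. Without replicate 1 it passed for 46 (13%), 19 higher (5.38%) and 27 lower (7.65%), and 37 were in both sets. With the 75th percentile of the miRNAs detected on all arrays, 76.1% of the calls were higher, against 45.3%. Both days of Activin A plus Wnt3a were scanned in the second session, on different slides, so that this difference and the scan session cannot be told apart. The groups follow the scanner files, and the authors' own table holds the Activin A and the Activin A plus Wnt3a arrays under each other's labels, so that which of these treatments the reference had cannot be told apart here. With the arrays labelled Activin A as the reference instead, an alternative chosen after seeing the data, the difference passed for 33 of 359 miRNAs (9.19%), 14 higher and 19 lower, and for 39 (10.9%) without replicate 1. The arrays labelled Activin A spanned both scan sessions, as the Wnt3a arrays did, and 10 of the 45 tested miRNAs among the 52 were called in them between the days, 9 in the direction seen with Wnt3a. Below, "both factors" means the arrays labelled Activin A plus Wnt3a.

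For miRNAs that every array of the 4 groups detected, the largest differences were at miR-196b and miR-375, both of which fell with Wnt3a alone. With Activin A plus Wnt3a, miR-196b was at 3.35, 3.14 and 3.50 at day 3 and at 5.77, 5.77 and 5.73 at day 5, and the Wnt3a change minus this one was -4.32 ± 2.04 (limma, adjusted p = 0.0015). miR-375 was at 4.61, 4.11 and 4.45 and then at 6.12, 6.26 and 6.44 with both factors, and the difference was -3.62 ± 0.91 (limma, adjusted p = 3.3e-07), or -4.03 without replicate 1. Among the miRNAs of the early embryo, miR-302a* was at 6.51, 6.55 and 6.53 and then at 5.75, 5.80 and 5.68 with both factors, a difference of -1.98 ± 0.48. miR-302b was at 11.13, 11.13 and 10.98 and then at 10.16, 10.27 and 10.47, and its difference of -1.86 ± 1.43 (limma, adjusted p = 0.045) was -0.60 without replicate 1. miR-183 stayed within 7.02 to 7.56 on the 6 arrays with both factors, and the difference was -1.68 ± 0.53 (-1.32 ± 0.35 without replicate 1). With the arrays labelled Activin A as the reference, the differences were -3.61 for miR-196b, -4.09 for miR-375, -2.78 for miR-302a*, -2.46 for miR-302b and -1.23 for miR-183, all called with all arrays, and miR-183 was not called without replicate 1 (-0.87).

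On the rising side, miR-124 was at 3.83, 3.74 and 3.60 and then at 3.25, 3.12 and 2.86 with both factors, a change of -0.65 that was not called, and the change was higher with Wnt3a alone by 2.72 ± 1.55 (limma, adjusted p = 0.0077), or by 2.57 without replicate 1. Against the arrays labelled Activin A it was higher by 2.80 ± 1.56. The difference for miR-9 was called only without replicate 1 (3.15 ± 2.40, adjusted p = 0.036; 2.16 and 0.2 with all arrays). The day 5 arrays of both conditions lay on 1 slide, where their levels can be set side by side. On it the mean of miR-302a was 11.22 with both factors and 8.79 with Wnt3a alone, that of miR-200b was 9.07 and 6.13, and that of miR-219 was 1.38, with detection on 1 of 3 arrays, and 9.35. miR-99a was undetected with both factors and at 6.21 with Wnt3a alone. On the day 5 arrays labelled Activin A, of which 1 lay on that slide, the means were 11.27 for miR-302a, 9.09 for miR-200b and 2.58 for miR-219, and miR-99a was undetected.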

How the data were processed

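Total RNA was hybridised in 1 colour (Cy3) to Agilent mouse miRNA arrays, and 39 scanner files were used, 3 arrays in each of 13 groups taken from the sample titles. The members and the miRNA lists used here were chosen with earlier results of these data known. Per the file headers, the deposited signal intensity of each miRNA was made by Agilent Feature Extraction 10.7.3.1, while the submitters' processing notes name 9.5.3.1. It sums background-subtracted spots of the probes, is not normalized between arrays and is 0.1 where undetected, and a deposited detection flag goes with it. The authors' deposited table of normalized log2 values was used as an alternative, for 21 arrays, since its 18 Activin A and Activin A plus Wnt3a columns match each other's scanner files rather than their own.

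The signals of 611 mouse miRNAs (39 others were left out) were quantile normalized over the 39 arrays as in the study's methods, undetected values and 232 of 10606 detected ones were set to a floor of 2, and log2 was taken. limma 3.58.1 (R 4.3.3) fitted the 13 groups together. A miRNA was tested where detected on at least 2 of 3 arrays of a compared group and called at a Benjamini-Hochberg adjusted p under 0.05 and over 2-fold. Named miRNAs are the 10 largest rises and falls among those called and detected on all arrays, those detected in 1 group only, list members called in either fit, a few uncalled members shown for contrast, and the 5 largest differences each way between conditions. The script was tested on simulated data. Median local background was 36 to 39.5 on the 6 arrays, with no saturated spot, and 3 arrays a group limit the precision. Alternatives were other scalings, backgrounds, floors, filters, fits, array weights, slide and replicate blocks, and each array left out, and, chosen after seeing the data, exchanged labels of the Activin A and Activin A plus Wnt3a arrays.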

Additional observations from a re-analysis of the deposited data

Results flagged for a closer look

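The results below were picked out because the change from day 3 to 5 with Wnt3a differed from that of another condition by a test of the difference itself. Against the control cells, 8 miRNAs passed with all arrays and 15 without Wnt3a day 5 replicate 1. The named differences (log2, Wnt3a change minus control change) were 1.21 for miR-136, -1.73 for miR-15b, -1.13 for miR-21 and -1.03 for miR-16 with all arrays. Without replicate 1 they were 1.38 for miR-34b-5p, 1.26 for miR-136, 1.15 for miR-29b and -1.01 for miR-15b. Against Activin A plus Wnt3a, 53 passed with all arrays and 46 without replicate 1. With all arrays the differences were 2.72 for miR-124, 2.07 for miR-92b, 1.42 for miR-452, 1.34 for miR-186 and 1.21 for miR-770-3p on the higher side, and -4.32 for miR-196b, -3.62 for miR-375, -1.98 for miR-302a*, -1.86 for miR-302b and -1.68 for miR-183 on the lower side. Without replicate 1 they were 3.15 for miR-9, 2.57 for miR-124, 1.20 for miR-20a and 1.15 for miR-20a*, and -4.47 for miR-196b, -4.03 for miR-375, -1.68 for miR-429, -1.58 for miR-302a* and -1.56 for miR-294*. With the arrays labelled Activin A as the reference, miR-92b, miR-452, miR-186, miR-770-3p and miR-20a* were called neither with all arrays nor without replicate 1. Against that reference miR-183 was called only with all arrays, and miR-9, miR-20a and miR-294* only without replicate 1. The comparison with Activin A plus Wnt3a also spans the 2 scan sessions unequally, and their part was not tested.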

How the results depend on the processing

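The 79 changed miRNAs became 8 with normexp background correction (115 at an unadjusted p under 0.05), 45 when limma was fitted on the compared arrays alone, and 67 to 103 when any 1 array was left out. With array weights they became 56. Normexp could not be fitted on Wnt3a day 3 replicate 1, which took the median parameters of the other arrays. Without day 5 replicate 1, the 67 became 11 with normexp and 56 to 74 with a further array left out. The 8 differences from the control change became 0 with normexp (limma, 38 at an unadjusted p under 0.05), 4 with the strict filter, 3 on the compared arrays alone, 14 with array weights, 4 with slide as a fixed term and 4 to 25 with an array left out. The 53 differences from the Activin A plus Wnt3a change became 5 with normexp, 28 with the strict filter, 33 with the labels of the Activin A and Activin A plus Wnt3a arrays exchanged and 45 to 75 with an array left out.

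Deviations from the group mean correlated at 0.0755, 0.0502 and 0.0262 for Wnt3a arrays with the same replicate number at both days. Arrays with different numbers gave -0.152 to 0.0805. Whether the replicates were paired cannot be told from this, since day 5 replicate 1 stood apart. With the replicate block, limma called 0 of the changes from day 3 to 5 (98 at an unadjusted p under 0.05; 120 without day 5 replicate 1) and 3 of the differences from the control change. The block was fitted on the compared arrays alone. Without a block, those arrays gave 45 changes from day 3 to 5, or 71 without day 5 replicate 1.

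Over the named miRNAs, settings were sorted by direction and by the adjusted p threshold alone, without the fold limit of a call. Of 1687 settings, 1309 kept the direction and the side of that threshold, 297 no longer passed it, 72 newly passed it and 9 changed sign. A setting counted as kept can still have lost or gained the call through the fold limit. The 9 were small values: 0.056 for miR-183*, 0.073 for miR-431* and 0.40 for miR-433* with the 75th percentile of miRNAs detected on all arrays, 0.29 for miR-433* and -0.061 for miR-20a with that of all miRNAs, and -0.0071 for miR-328, -0.021 for miR-668, -0.011 for miR-93* and 0.068 for the miR-302a* difference from Activin A plus Wnt3a with normexp. The cause was not tested. Slide as a fixed term could not be fitted for the Wnt3a change, and the authors' table was not run against Activin A plus Wnt3a.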
